A study of Mus musculus with 2 samples.

Results

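A group of 10 genes that build or organise the microtubule cytoskeleton of migrating neurons were followed through the cell classes of the embryonic mouse cortex. The genes were taken by symbol and comprised 10 of the 32285 genes in the count tables, each on 1 row: the tubulins Tuba1a, Tubb2a, Tubb2b, Tubb3 and Tubb5, the doublecortin-type and lissencephaly genes Dcx, Dclk1 and Pafah1b1, and the small GTPase genes Rnd2 and Rnd3. All 10 passed the filter on low counts in every comparison. The study profiled the dorsal telencephalon of wild-type embryos at embryonic day 14.5 (E14.5) by droplet single-cell RNA sequencing of transcript 3' ends. Both libraries, labelled WT replicates 1 and 3, came from control animals of an Eomes-Cre mouse line with EoMltt3 in the sample titles, and the labels do not say whether these embryos carried Cre. The labels name the tissue as brain hemispheres, the study's methods give a C57BL/6J background, and there was no treatment and no second genotype. Whether the replicates were littermates is not stated, so p-values measured the spread between these 2 samples alone.

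Microtubules are polymers of alpha- and beta-tubulin, and mammals encode each subunit in several genes whose proteins differ mainly at their carboxy-terminal tails. Tuba1a, Tubb2b and Tubb3 are the isotypes best known from growing neurons, and variants of these genes disturb cortical folding and layering in humans. Doublecortin (Dcx) and its kinase relative Dclk1 stabilise microtubules in migrating neurons. Pafah1b1 encodes LIS1, which acts with cytoplasmic dynein in moving the nucleus. Rnd2 and Rnd3 are atypical GTPases that act on the actin cytoskeleton of migrating neurons, and Rnd2 is known in the developing cortex as a target of the proneural factor NEUROG2.

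Replicate 1 held 6163 barcodes and 64182006 UMIs (unique molecular identifiers, each counted as 1 transcript molecule), and replicate 3 held 8870 barcodes and 93295807 UMIs. After filtering, 5184 and 6952 cells were kept. The 2 libraries shared 23 barcodes. Clusters were named from marker genes that included none of the 10 genes, and neither the 10 genes nor the other cytoskeletal genes counted below entered the clustering. This gave 688 and 1618 RGC-like cells (radial glia, replicates 1 and 3), 347 and 607 IPC-like cells (intermediate progenitors), 1351 and 2063 newborn projection neuron-like cells, 1533 and 1447 projection neuron-like cells, and 336 and 222 MGE interneuron-like cells (medial ganglionic eminence). The MGE interneuron-like cells were shallower, with a median of 4545 and 4056.5 UMIs per cell against 10762 and 9719 in newborn projection neuron-like cells. LGE neuron-like cells (lateral ganglionic eminence) were present at 441 in replicate 1 but 29 in replicate 3. This class was 1 cluster led by Adarb2, with 6 of 7 LGE markers and 4 of 6 CGE markers (caudal ganglionic eminence) on. At a finer cluster resolution of 2, 118 and 1 cells were named LGE neuron-like and 256 and 26 CGE interneuron-like (replicates 1 and 3). Levels of the LGE neuron-like class may therefore be those of a mixture of both types. Levels are given as CPM, the UMIs of a gene per 1000000 UMIs summed over a class in 1 library. For 3' counts this needs no correction for transcript length, though capture may still differ between genes.

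RefSeq promoter windows (GRCm38.p6, the mm10 assembly) existed for 8 of the 10 genes, without entries for Tubb2b and Rnd2. Sequences are printed for 4 of them as the 250 bases before the start site, 1 for each pattern of expression described below. Tubb3 was low in progenitors, Tubb5 was higher in cycling radial glia, and Tubb2a was higher in later than in newborn projection neurons. Rnd3 was higher in intermediate progenitors than in radial glia and lower in later than in newborn projection neurons. In this order the 4 sequences lie at chr8:123411303-123411552 (plus strand), chr17:35838302-35838551 (minus strand), chr13:34078009-34078258 (minus strand) and chr2:51149112-51149361 (minus strand). Capitals mark the motifs searched on both strands, namely the CCAAT box, the GC box GGGCGG, the TATA box TATAAA and E-boxes spelled CAGATG or otherwise CAGCTG.
Tubb3: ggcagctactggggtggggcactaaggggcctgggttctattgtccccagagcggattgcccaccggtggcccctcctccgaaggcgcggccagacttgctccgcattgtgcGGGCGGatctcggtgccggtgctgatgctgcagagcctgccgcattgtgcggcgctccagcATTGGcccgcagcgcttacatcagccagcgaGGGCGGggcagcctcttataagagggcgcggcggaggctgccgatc
Tubb5: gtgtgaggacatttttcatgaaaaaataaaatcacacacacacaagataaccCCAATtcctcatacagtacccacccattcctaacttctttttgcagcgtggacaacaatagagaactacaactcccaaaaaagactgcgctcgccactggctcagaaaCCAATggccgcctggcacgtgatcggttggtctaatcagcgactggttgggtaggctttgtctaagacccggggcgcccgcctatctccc
Tubb2a: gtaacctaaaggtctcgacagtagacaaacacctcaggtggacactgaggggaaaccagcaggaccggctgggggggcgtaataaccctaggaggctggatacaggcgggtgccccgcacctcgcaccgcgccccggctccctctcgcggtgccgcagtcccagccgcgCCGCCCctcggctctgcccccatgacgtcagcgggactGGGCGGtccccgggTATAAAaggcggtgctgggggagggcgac
Rnd3: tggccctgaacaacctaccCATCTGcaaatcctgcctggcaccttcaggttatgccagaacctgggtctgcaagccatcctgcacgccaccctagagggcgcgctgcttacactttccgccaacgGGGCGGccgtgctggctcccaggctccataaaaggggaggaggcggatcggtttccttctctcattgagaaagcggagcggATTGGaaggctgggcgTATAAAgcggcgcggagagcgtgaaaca

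The 8 genes had 10 windows, with 2 each for Dcx and Dclk1, and a gene was counted if any of its windows held the motif. The shares over all windows are per window, so the 2 kinds of count are not fully alike. CCAAT was present before 6 of the 8 genes, against 33.8% of all 32851 windows of this length, and GGGCGG before 4 of 8, against 32.7%. TATAAA was found before 3 of 8 genes (12.4% of all windows), at 29 bases before the start in Tubb2a and 28 in Rnd3. In the 2 windows of Dcx it lay further away, at 98 and 193 bases. CAGATG was found before Rnd3 alone among the 8 (14.4% of all windows) and CAGCTG before none of them (13.001%). These are matches of letters and not measured binding sites.

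From radial glia to intermediate progenitors, the genes of the migrating neuron were switched on unevenly. Dcx, Tubb3 and Rnd2 differed most, while Tuba1a and Rnd3 rose less and Tubb2a fell. Cluster 12 (515 cells), with 12 of 12 RGC and 10 of 10 IPC markers on, stayed unnamed and entered neither class. Cluster 11 (548 cells), with 12 of 12 RGC and 8 of 10 IPC markers on, was named RGC-like. This step thus leaves out some cells with the markers of both classes and counts others as RGC-like. At a cluster resolution of 2, a cluster led by Gadd45g, Smoc1 and Neurog2, which also lead cluster 12, was named IPC-like. In IPC-like against RGC-like cells, 5 of the 10 genes were higher and 1 was lower by edgeR's quasi-likelihood test at a Benjamini-Hochberg adjusted p of 0.05, where 36.2% of the 16011 genes tested were called, 18.0% higher and 18.3% lower. The median log2 difference of the 10 genes was 0.49, beside -0.02 over all genes. With predicted doublets kept in the data, the Tuba1a difference was 0.35 (adjusted p = 0.1002) and the Rnd3 difference 0.53 (adjusted p = 0.0725), Tubb3 and Dcx differed by 1.48 and 2.04, and Dclk1 was called lower by 0.66 (log2 fold change -0.66, adjusted p = 0.00424), all by edgeR.

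From intermediate progenitors to newborn projection neurons, 4 of the 5 tubulins among the 10 genes rose, as did Dcx and Dclk1. Tuba1a, Tubb2a, Tubb2b, Tubb3, Dcx and Dclk1 were higher, so 6 of the 10 genes were called higher and 0 lower, where 33.1% of all genes were called, 17.5% higher and 15.6% lower. With libraries scaled by size alone, the higher and lower calls over all genes were 2209 and 3226 in place of 2796 and 2496, with the median of all genes moved by -0.12. The median log2 difference was 1.03 for the 10 genes and 0.03 for all genes. Tubb5, Pafah1b1, Rnd2 and Rnd3 did not pass the test. With predicted doublets kept, the Tubb2a difference was 0.95 (adjusted p = 0.00327, edgeR).

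From newborn to later projection neurons, the changes were in Tubb2a, Tubb2b and Dclk1, which rose, and in Rnd2 and Rnd3, which fell. These were 3 genes higher and 2 lower of 10, where 25.7% of all genes were called, 15.6% higher and 10.1% lower. The median log2 difference was 0.27, beside 0.02 over all genes. Tuba1a, Tubb3, Tubb5, Dcx and Pafah1b1 did not pass the test.

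Interneurons differed from both stages of projection neuron. Against newborn projection neuron-like cells, MGE interneuron-like cells were lower in Tuba1a, Tubb2b, Tubb3, Tubb5 and Rnd2 and higher in Tubb2a and Dclk1, that is 5 genes lower and 2 higher of 10, where 37.9% of all genes were called, 22.1% lower and 15.8% higher. Against projection neuron-like cells, 6 genes were lower (Tuba1a, Tubb2a, Tubb2b, Tubb3, Tubb5 and Rnd2) and 1 was higher (Dcx), where 33.9% of all genes were called, 22.1% lower and 11.8% higher. With predicted doublets kept, the differences from newborn cells were -0.72 for Tuba1a (adjusted p = 0.00462) and -0.53 for Tubb2b (adjusted p = 0.0075, edgeR), and without replicate 3 those of Tubb3 and Tubb5 were -0.50 and -0.64, values that allow no test. The median log2 differences of the 10 genes were -0.79 and -0.89, beside -0.07 and -0.14 over all genes. Scaling by library size alone moved the median of all genes by 0.17 and 0.21 in these 2 comparisons. With it, the higher and lower calls over all genes were 3277 and 2733 in place of 2531 and 3545 against newborn cells, and 2955 and 2427 in place of 1895 and 3534 against projection neuron-like cells. DESeq2's scaling moved the medians by 0.11 in both, with 2955 higher and 2787 lower against newborn cells and 2345 and 2700 against projection neuron-like cells.

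**Figure D1:**
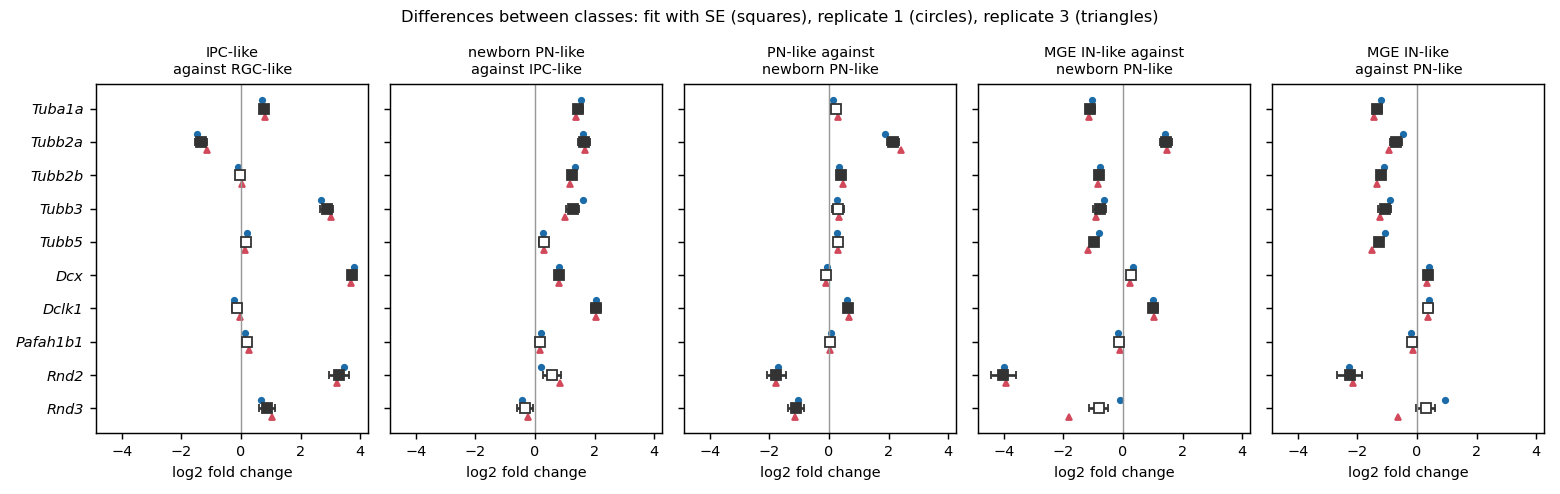
Log2 fold changes (x axis) of the 10 genes (y axis) in the 5 comparisons between classes. Squares are the edgeR estimates with their standard errors, filled where the adjusted p was under 0.05, and circles and triangles are replicates 1 and 3 on their own; the 2 replicates lie on opposite sides of 0 for Rnd3 in MGE interneuron-like against projection neuron-like cells and for Tubb2b in IPC-like against RGC-like cells.

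Tuba1a, the main alpha-tubulin of postmitotic neurons, was measured at 1013 and 1140 CPM in the RGC-like class (replicates 1 and 3), 1581 and 1883 in IPC-like, 4153 and 4569 in newborn projection neuron-like, 4491 and 5473 in projection neuron-like, and 2260 and 2350 CPM in the MGE interneuron-like class. RGC-like, IPC-like, MGE interneuron-like and newborn projection neuron-like cells did not overlap in this order, whereas newborn and later projection neuron-like cells did. The log2 fold change was 0.77 ± 0.15 (SE, adjusted p = 0.00298) in IPC-like against RGC-like cells and 1.45 ± 0.15 (adjusted p = 6.05e-05) in newborn projection neuron-like against IPC-like cells, and MGE interneuron-like cells were lower than newborn ones by 1.09 (log2 fold change -1.09 ± 0.15, adjusted p = 0.000371). Tuba1a has near-identical relatives: 52.1% of the 90-base windows in the last 500 bases of its transcript also occur in Tuba1b, Tuba1c or pseudogenes, so its count is uncertain. The other 9 genes shared 0% of such windows with another gene.

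Tubb3, the beta-tubulin used as a marker of neurons, stood at 65.9 and 84.0 CPM in the RGC-like class, 399.7 and 637.5 in IPC-like, 1107 and 1192 in newborn projection neuron-like, 1307 and 1447 in projection neuron-like, and 793.6 and 711.3 CPM in the MGE interneuron-like class. No class overlapped its neighbour in this order, although later and newborn projection neuron-like cells did not differ by the test (log2 fold change 0.30 ± 0.21, adjusted p = 0.330, edgeR). The rise from RGC-like to IPC-like cells was 2.87 ± 0.23 on the log2 scale (adjusted p = 1.33e-05), and that from IPC-like to newborn cells was 1.27 ± 0.21 (adjusted p = 0.00131). MGE interneuron-like cells were lower than newborn projection neuron-like cells (log2 fold change -0.78 ± 0.21, adjusted p = 0.0160) and than projection neuron-like cells (-1.08 ± 0.21, adjusted p = 0.00361), and the former call was lost with a stricter cell filter (-0.63, adjusted p = 0.0541, edgeR).

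Tubb2b, a beta-tubulin of neural progenitors and young neurons, was nearly level across progenitors, at 1103 and 1141 CPM in RGC-like and 973.0 and 1101 CPM in the IPC-like class. It reached 2220 and 2300 CPM in newborn and 2742 and 3094 CPM in the later projection neuron-like class, and stood at 1470 and 1441 CPM in the MGE interneuron-like class. The step from IPC-like to newborn cells was 1.25 ± 0.12 on the log2 scale (adjusted p = 4.30e-05, edgeR), with both newborn replicates above both IPC-like ones. The smaller step to later neurons (0.41 ± 0.12, adjusted p = 0.0311) was no longer past the threshold after thinning each cell to 3000 UMIs (0.33, adjusted p = 0.0891, edgeR).

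Tubb2a, the neighbouring beta-tubulin gene on chromosome 13, followed another course than Tubb2b. It was at 95.2 and 62.7 CPM in the RGC-like class, 32.3 and 26.7 in IPC-like, 89.7 and 79.3 in newborn projection neuron-like, 319.1 and 408.0 in projection neuron-like, and 266.6 and 251.4 CPM in the MGE interneuron-like class. It therefore dipped in intermediate progenitors, by -1.33 ± 0.21 on the log2 scale against RGC-like cells (adjusted p = 0.000870), and then rose at both later steps, by 1.65 ± 0.21 (adjusted p = 0.000226) and 2.15 ± 0.19 (adjusted p = 6.14e-05, edgeR). Cajal-Retzius-like cells, the Reln-producing neurons of the marginal zone, held 680.3 and 444.5 CPM, the highest level of the 11 classes in both replicates. MGE interneuron-like cells exceeded newborn projection neuron-like cells by 1.45 ± 0.20 (adjusted p = 0.000367), and lay below projection neuron-like cells by -0.70 ± 0.19 (adjusted p = 0.0198). The second difference did not pass when libraries were scaled by size alone (-0.49, adjusted p = 0.0847, edgeR) and was -0.34 without replicate 3.

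Tubb5, a beta-tubulin of dividing cells as well as neurons, had the flattest profile of the beta-tubulins in the projection lineage, from 1687 and 1912 CPM in RGC-like and 1864 and 1957 CPM in the IPC-like class to 2039 and 2239 CPM in newborn and 2407 and 2681 CPM in the later projection neuron-like class. None of these 3 steps passed the test (adjusted p = 0.366, 0.142 and 0.1503, edgeR). The step to newborn cells was called with predicted doublets kept (0.43, adjusted p = 0.0301) and at a finer cluster resolution (0.56, adjusted p = 0.0148). MGE interneuron-like cells, at 1321 and 1116 CPM, lay below all of these values, and the difference from newborn cells was -0.98 ± 0.14 (adjusted p = 0.000432, edgeR). The flat profile is one of class sums. As means of both replicates, Tubb5 ranged from 1018 to 2473 CPM among the 4 RGC-like clusters and from 1337 to 2770 CPM between the 2 IPC-like clusters.

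**Figure D2:**
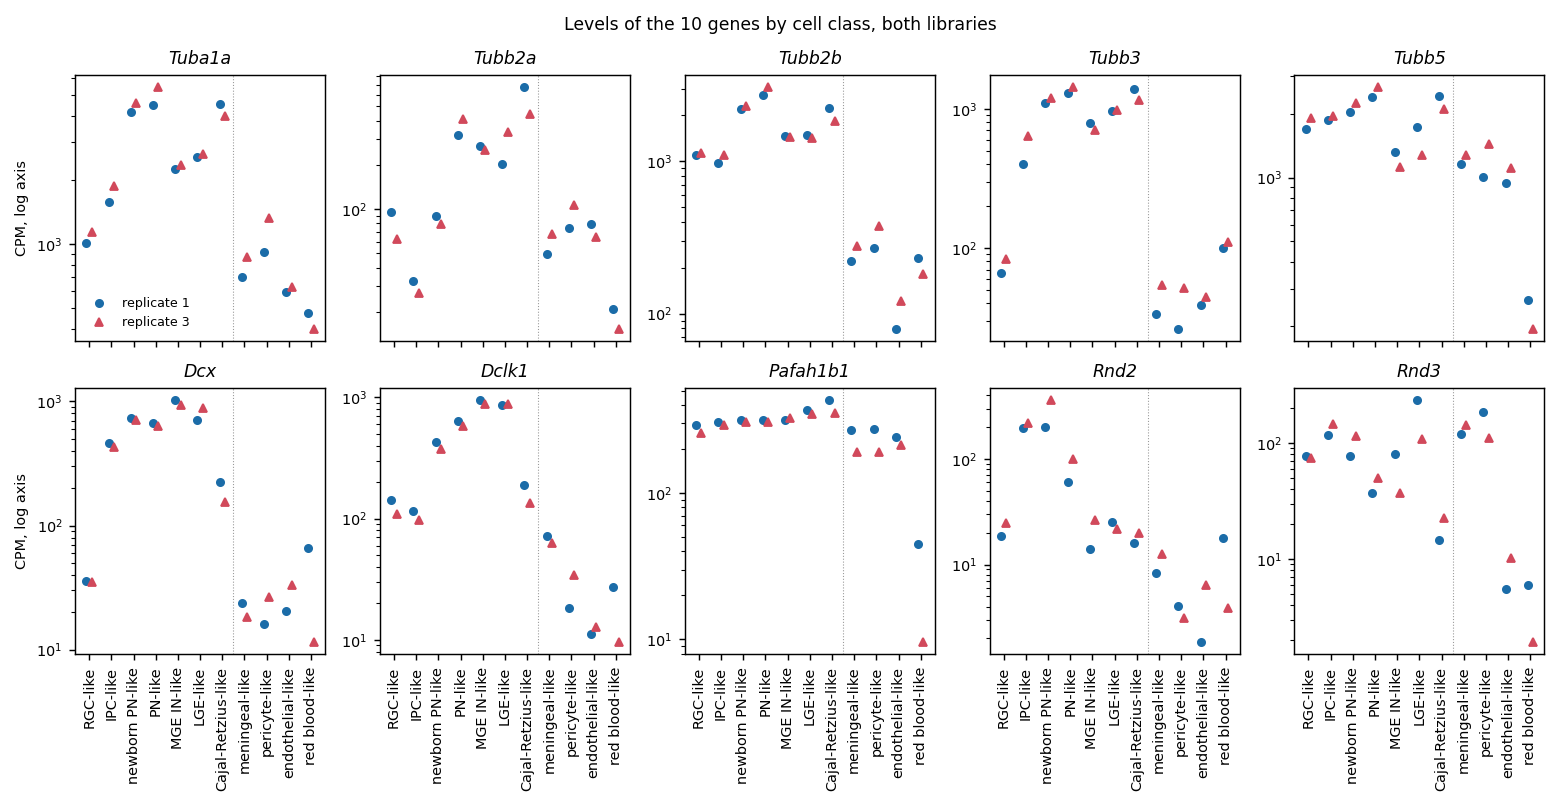
CPM (y axes, logarithmic) of each of the 10 genes in the 11 classes (x axis) that held at least 20 cells in each library, with circles for replicate 1 and triangles for replicate 3. PN stands for projection neuron and IN for interneuron, and classes right of the dotted line are non-neural; Tubb3 stands at 65.9 and 84.0 CPM in the RGC-like class and above 1000 CPM in both projection neuron-like classes.

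The isotype mixture of beta-tubulin is given here as shares, described without a test. Among the UMIs of the 7 beta-tubulin genes Tubb2a, Tubb2b, Tubb3, Tubb4a, Tubb4b, Tubb5 and Tubb6, Tubb3 made up 2.03 and 2.39% in the RGC-like class, 11.6 and 16.5% in the IPC-like class, 19.9 and 20.2% in newborn and 18.9 and 18.5% in later projection neuron-like cells. MGE interneuron-like cells, at 20.1 and 19.7%, were within 1 percentage point of newborn projection neuron-like cells in this share although their Tubb3 level was lower. Tubb5 made up 51.9 and 54.5% in the RGC-like class, 54.2 and 50.6% in the IPC-like class, 36.6 and 37.9% in newborn, 34.7 and 34.3% in later projection neuron-like, and 33.5 and 30.8% in MGE interneuron-like cells. Tubb4b, a broadly used isotype that is not among the 10 genes, fell from 8.87 and 8.60% in RGC-like cells to 1.15 and 1.17% in newborn projection neuron-like cells. Tubb2a took up 0.94 and 0.69% in IPC-like cells against 6.76 and 6.95% in MGE interneuron-like and 9.54 and 7.47% in Cajal-Retzius-like cells. In red blood cell-like cells Tubb3 accounted for 15.2 and 21.03%, in the range of the neuronal classes in replicate 3. These 2 shares rest on 217 and 271 beta-tubulin UMIs, and their part from free RNA was not tested. Endothelial-like cells were at 2.79 and 2.81%.

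**Figure D3:**
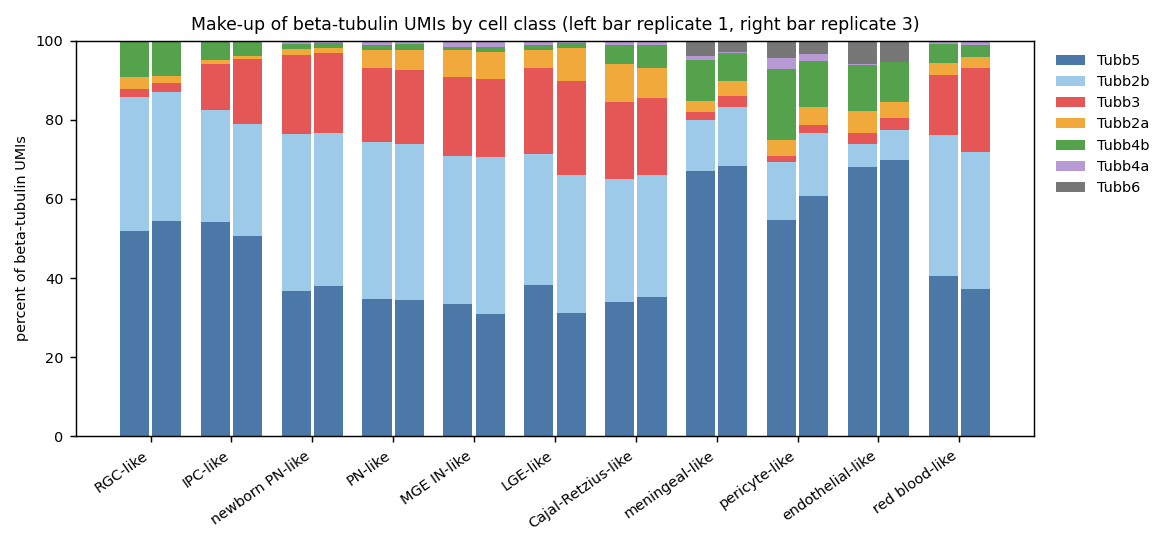
Share of each of 7 beta-tubulin genes in their summed UMIs (y axis, percent) by class (x axis), with replicate 1 on the left and replicate 3 on the right of each pair. The Tubb3 segment grows from 2.03 and 2.39% in RGC-like to 19.9 and 20.2% in newborn projection neuron-like cells.

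Dcx, which encodes doublecortin, was at 35.7 and 34.9 CPM in the RGC-like class, 465.6 and 426.5 in IPC-like, 729.9 and 703.3 in newborn projection neuron-like, 675.1 and 632.8 in projection neuron-like, and 1027 and 929.3 CPM in the MGE interneuron-like class. MGE interneuron-like cells thus held the highest level of the 11 classes in both replicates, and Cajal-Retzius-like cells held only 225.8 and 153.9 CPM, below the other neuronal classes. The rise to IPC-like cells was 3.74 ± 0.12 on the log2 scale (adjusted p = 2.09e-07) and the next step was 0.81 ± 0.11 (adjusted p = 0.000303, edgeR). Later and newborn projection neuron-like cells differed by -0.09 ± 0.11 (adjusted p = 0.602). MGE interneuron-like cells were higher than projection neuron-like cells by 0.37 ± 0.11 (adjusted p = 0.0249), a call that was lost without the filter on low counts (0.29, adjusted p = 0.107), while the difference was 0.58 with library sizes alone (adjusted p = 0.00227, edgeR). Against newborn cells the difference of 0.28 ± 0.11 did not pass (adjusted p = 0.0664), but it did with the replicate as a block (0.28, adjusted p = 0.0136), with DESeq2 (0.39, adjusted p = 0.000723), with library sizes alone (0.45, adjusted p = 0.00728) and after thinning to 3000 UMIs (0.42, adjusted p = 0.0144). With predicted doublets kept it was 0.14 (adjusted p = 0.336, edgeR).

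Counted by cells thinned to 3000 UMIs each, Dcx was detected in 9.30% (95% Wilson interval 7.32 to 11.7%) and 8.68% (7.39 to 10.2%) of RGC-like cells in replicates 1 and 3. Red blood cell-like cells, which should lack it, gave 12.8% (5.98 to 25.2%) and 5% (1.71 to 13.7%), and meningeal-like cells 11.1 and 5.38%. The shares in RGC-like cells lay within the intervals of the red blood cell-like shares, and by these shares alone could not be told from free RNA at this depth. Mean Dcx UMIs per unthinned cell were 0.50 and 0.45 in RGC-like against 0.39 and 0.064 in red blood cell-like cells (replicates 1 and 3). As means of both replicates, Dcx ranged from 16.5 to 115.8 CPM among the 4 RGC-like clusters. The part of free RNA in the RGC-like level was not tested, and the Dcx increase in IPC-like cells was measured against that level. Shares rose to 63.3 and 63.6% in IPC-like, 87.4 and 86.5% in newborn projection neuron-like and 94.0 and 95% in MGE interneuron-like cells. Unthinned, the shares were 21.5 and 22.6% in RGC-like cells at a median of 13188 and 12184 UMIs, and 16.1 and 5.32% in red blood cell-like cells at 5303.5 and 4425 UMIs. Tubb3 behaved alike, with 16.9 and 19.1% of thinned RGC-like cells against 12.8 and 31.7% of red blood cell-like cells, and 65.9 and 81.0% of IPC-like cells. Thinning left out 21 and 39 RGC-like, 68 and 62 MGE interneuron-like, and 9 and 34 red blood cell-like cells. The intervals cover counting error only.

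Dclk1, a kinase with doublecortin domains, was already present in radial glia and rose at the step to newborn neurons. It was at 143.2 and 108.2 CPM in RGC-like and 115.9 and 98.0 CPM in the IPC-like class, and then at 427.5 and 378.7 in newborn projection neuron-like, 634.3 and 579.7 in projection neuron-like, 952.6 and 883.8 in MGE interneuron-like, and 863.1 and 881.4 CPM in the LGE neuron-like class. Both GABAergic classes lay above both projection neuron-like classes in each replicate. The difference between IPC-like and RGC-like cells was -0.15 ± 0.15 (adjusted p = 0.481), that at the step to newborn cells 2.04 ± 0.16 (adjusted p = 8.16e-06) and that at the step to later neurons 0.63 ± 0.15 (adjusted p = 0.0112, edgeR). MGE interneuron-like cells exceeded newborn cells by 1.02 ± 0.15 (adjusted p = 0.000559). Against projection neuron-like cells the difference was 0.38 ± 0.15 (adjusted p = 0.0743). It was past the threshold with the replicate as a block (0.38, adjusted p = 0.00527), with DESeq2 (0.49, adjusted p = 0.0148), with library sizes alone (0.60, adjusted p = 0.0126) and after thinning (0.54, adjusted p = 0.00864).

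Pafah1b1, which encodes the dynein regulator LIS1, was the most even of the 10 genes among the 5 neural classes compared. Its lowest and highest levels there were 255.5 CPM in the RGC-like class of replicate 3 and 322.6 CPM in the MGE interneuron-like class of replicate 3. It passed the test in none of the 5 class comparisons or the 2 phase comparisons below, the nearest being IPC-like against RGC-like cells (0.21 ± 0.10, adjusted p = 0.125, edgeR), which did pass with the replicate as a block (0.21, adjusted p = 0.0457). Non-neural classes held it too, at 191.1 to 275.0 CPM in meningeal-like, pericyte-like and endothelial-like cells, while red blood cell-like cells were at 45.1 and 9.6 CPM.

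Rnd2, the GTPase that NEUROG2 is known to induce in migrating cortical neurons, formed a transient peak in the projection lineage. It was at 18.7 and 25.0 CPM in the RGC-like class, 194.5 and 216.9 in IPC-like, 201.2 and 361.8 in newborn projection neuron-like, and 60.01 and 100.7 CPM in the projection neuron-like class. MGE interneuron-like cells held 14.0 and 26.6 CPM, LGE neuron-like cells 25.4 and 21.7, and Cajal-Retzius-like cells 16.02 and 19.9 CPM, so the other neuronal classes were at about the level of radial glia. The increase from RGC-like to IPC-like cells was 3.29 ± 0.34 on the log2 scale (adjusted p = 6.16e-05), and later projection neuron-like cells were below newborn ones by -1.76 ± 0.31 (adjusted p = 0.00256, edgeR). The step from IPC-like to newborn cells differed between the replicates, at 0.20 and 0.83, and did not pass the test (0.57 ± 0.30, adjusted p = 0.179), although it did with the replicate as a block (0.52, adjusted p = 0.0103) and without the filter on low counts (0.61, adjusted p = 0.0301). MGE interneuron-like cells were lower than newborn cells by -4.02 ± 0.42 (adjusted p = 6.98e-05) and than later projection neuron-like cells by -2.26 ± 0.43 (adjusted p = 0.00286). With predicted doublets kept these were -2.56 (adjusted p = 0.00109) and -0.82 (adjusted p = 0.155, edgeR).

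Rnd3, a close relative of Rnd2, was spread over more classes. It was at 77.3 and 74.7 CPM in the RGC-like class, 118.1 and 145.0 in IPC-like, 78.01 and 114.4 in newborn projection neuron-like, 36.7 and 49.5 in projection neuron-like, and 80.6 and 36.9 CPM in the MGE interneuron-like class. LGE neuron-like cells held 235.6 and 108.4 CPM, the highest level of the 11 classes in replicate 1 but not in replicate 3, and the gene was also at 186.0 and 110.6 CPM in pericyte-like and 119.1 and 141.9 CPM in the meningeal-like class. IPC-like cells were above RGC-like cells by 0.88 ± 0.27 (adjusted p = 0.0281), and projection neuron-like cells were below newborn ones by -1.11 ± 0.27 (adjusted p = 0.0126, edgeR). In MGE interneuron-like cells the replicates disagreed. Against newborn cells the log2 differences were -0.12 and -1.81 in replicates 1 and 3, with -0.82 ± 0.31 in the fit (adjusted p = 0.0604), and against projection neuron-like cells they were 0.93 and -0.65. The first of these passed the threshold without the filter on low counts (-0.91, adjusted p = 0.00138), with predicted doublets kept (-0.99, adjusted p = 0.00796), at the finer cluster resolution (-0.92, adjusted p = 0.0366) and after thinning (-0.85, adjusted p = 0.0222).

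Within classes, levels also varied between clusters, which are not ordered as stages. Among RGC-like cells, Dcx was at 141.1 and 90.5 CPM in cluster 11, in which 8 of 10 IPC markers were on, but at 14.7 to 25.7 CPM in the other 3 clusters. Among newborn projection neuron-like cells, cluster 1, led by Unc5d, Slc17a6 and Neurod1, had the lowest Tuba1a of the 4 clusters of full depth (2562 and 3117 CPM) and the highest Rnd3 (184.5 and 187.9 CPM) and Dcx (876.0 and 833.6 CPM). Cluster 8, led by Luzp2 and Rnd2 itself, held 5650 and 6051 CPM of Tuba1a and 272.6 and 497.2 CPM of Rnd2. Among projection neuron-like cells, Rnd2 was at 14.0 and 24.5 CPM in cluster 0, led by Hs3st4, a gene of corticothalamic neurons, and at 57.7 to 191.1 CPM in the other 3 clusters. Cluster 0 also held 388.2 and 523.2 CPM of Tubb2a. These clusters were compared as descriptions without a test.

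**Figure D4:**
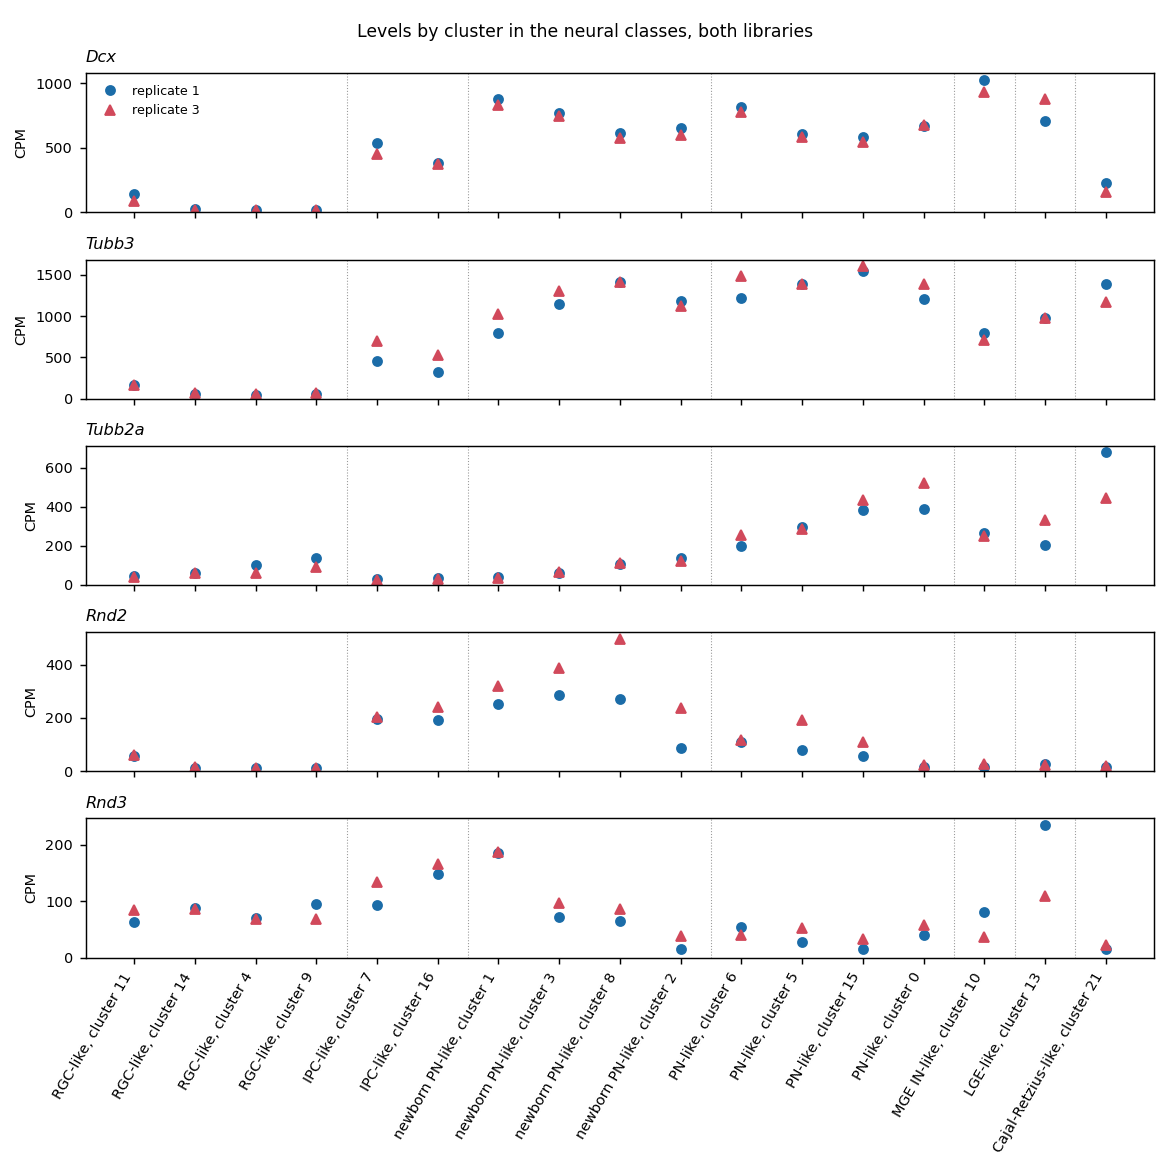
CPM (y axes) of Dcx, Tubb3, Tubb2a, Rnd2 and Rnd3 in each cluster of the neural classes (x axis, ordered within a class by the Tubb2a level), with circles for replicate 1 and triangles for replicate 3 and dotted lines between classes; the shallow newborn cluster 19 is not drawn. Rnd2 is highest in newborn cluster 8 of replicate 3 (497.2 CPM). As means of both replicates, Tubb2a is at 227.5 to 455.7 CPM among the projection neuron-like clusters and at 562.4 CPM in the Cajal-Retzius-like cluster. In replicate 3 on its own, the Cajal-Retzius-like cluster (444.5 CPM) lies below a projection neuron-like cluster.

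In radial glia, Tubb5 was higher in cycling cells, whereas Tuba1a and Tubb2a passed the test in neither phase. Cells were scored on 43 S-phase and 52 G2M genes, which included no tubulin, and 299 and 642 RGC-like cells were assigned to G2M, 182 and 507 to S and 186 and 430 to G1. Tubb5 was at 863.7 and 1014 CPM in G1, 1812 and 2016 in S and 1994 and 2269 CPM in G2M, with no overlap between G1 and the other phases. The differences from G1 were 1.21 ± 0.14 for G2M (adjusted p = 0.00143) and 1.06 ± 0.14 for S (adjusted p = 0.00286, edgeR). Tubb2b was higher in G2M by 0.43 ± 0.11 (adjusted p = 0.0437). Over the 10 genes, 2 were higher and 3 lower in G2M, where 14.0% of the 12835 genes tested were called (7.84% higher, 6.12% lower), and 1 was higher and 3 lower in S, where 14.4% were called (8.55% higher, 5.83% lower). With the replicate as a block, the S comparison also called Tubb2a (0.42, adjusted p = 0.00309) and Tubb2b (0.35, adjusted p = 0.000111) higher and Dclk1 lower (-0.53, adjusted p = 9.99e-05).

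The 3 genes called lower in both phases were Tubb3, Dcx and Rnd2, with log2 differences of -1.64 ± 0.19, -2.21 ± 0.13 and -1.99 ± 0.23 in G2M (adjusted p = 0.00142, 3.71e-05 and 0.00138, edgeR). Their level in G1 came largely from cluster 11, which supplied 49.5 and 63.3% of the G1 cells but 2.34 and 3.12% of the G2M cells and 7.69 and 26.0% of the S cells. Leaving out cluster 11, the differences in G2M were -0.46 (adjusted p = 0.194), -0.15 (adjusted p = 0.814) and -0.22 (adjusted p = 0.665, edgeR), and none of the 3 was called in S either. Outside cluster 11, Dcx was at 14.4 and 26.5 CPM in G1 and 19.8 and 17.9 CPM in G2M, which lay in the range of the non-neural classes (11.5 to 66.1 CPM). The Tubb5 difference in G2M was 1.15 (adjusted p = 0.00588) without cluster 11, and the Tubb2b difference was 0.26 (adjusted p = 0.2503).

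**Figure D5:**
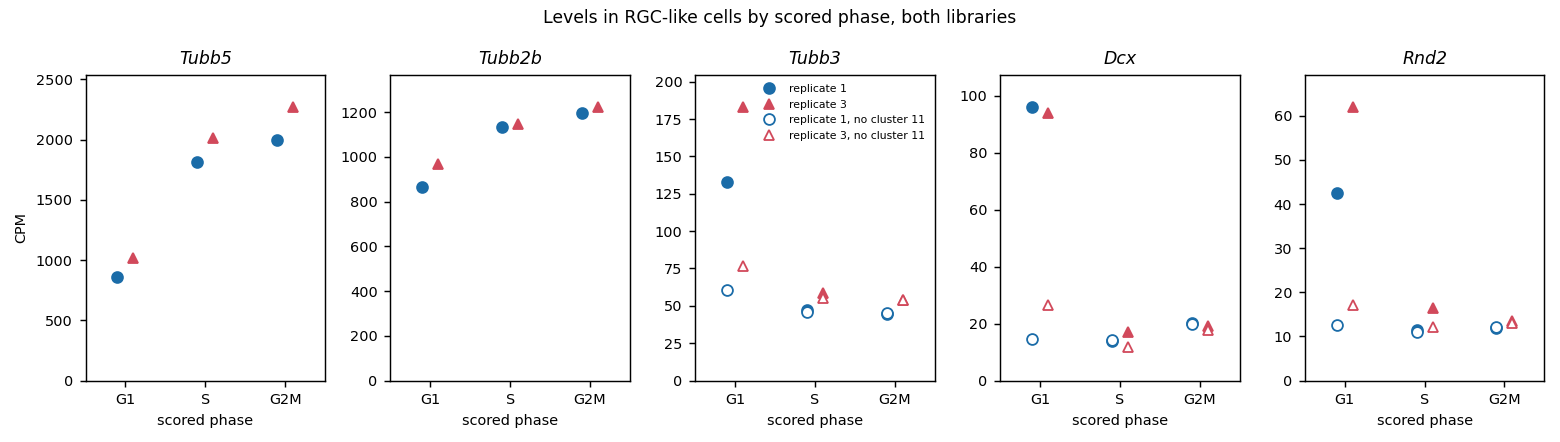
CPM (y axes) of 5 genes in RGC-like cells by scored phase (x axis), with circles for replicate 1 and triangles for replicate 3, and open symbols for Tubb3, Dcx and Rnd2 after leaving out cluster 11. Tubb5 stands at 863.7 and 1014 CPM in G1 against 1994 and 2269 CPM in G2M, whereas Dcx in G1 stands at 95.9 and 93.9 CPM with cluster 11 and at 14.4 and 26.5 CPM without it.

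Of 111 further genes of the microtubule and migration machinery, 106 were tested between classes. In IPC-like against RGC-like cells, 37 were higher and 18 lower, with a median log2 difference of 0.19, where 18.0% of all genes were called higher and 18.3% lower. In newborn projection neuron-like against IPC-like cells, 49 were higher and 13 lower (median 0.33), where 17.5 and 15.6% of all genes were called higher and lower. In projection neuron-like against newborn cells, 27 were higher and 11 lower (median 0.14), where the shares of all genes were 15.6 and 10.1%. In MGE interneuron-like cells, 15 were higher and 35 lower against newborn cells (median -0.10), where 15.8 and 22.1% of all genes were called higher and lower. This balance depended on the scaling, with 30 higher and 26 lower (median 0.075) by library sizes alone and 25 higher and 27 lower (median 0.011) by DESeq2. Against projection neuron-like cells, 10 were higher and 45 lower (median -0.37), where the shares of all genes were 11.8 and 22.1%, and the counts were 20 and 31 by library sizes alone and 11 and 36 by DESeq2. The medians over all genes in these 5 comparisons were -0.02, 0.03, 0.02, -0.07 and -0.14.

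Microtubule-associated and destabilising proteins made up 28 of these genes, and 18 of them were higher and 2 lower in newborn projection neuron-like than in IPC-like cells, beside 17.5% higher and 15.6% lower over all genes. Stmn2, a stathmin that binds tubulin dimers in growing axons, rose from 57.8 ± 1.6 CPM (SD, n = 2) to 648.2 ± 9.5 and then to 1884 ± 247 CPM in later neurons (log2 steps 3.61 and 1.58). Mapt, which encodes tau, rose from 27.4 ± 8.0 to 178.3 ± 67.5 and 779.3 ± 1.5 CPM. Kif2c, a mitotic microtubule depolymerase, fell from 48.6 ± 9.0 to 0.55 ± 0.21 CPM at the newborn step. In MGE interneuron-like cells Kif2a, a related depolymerase of postmitotic neurons, stood at 495.8 ± 2.6 CPM against 158.9 ± 10.8 CPM in newborn cells (log2 fold change 1.47, adjusted p = 9.29e-06, edgeR), in the direction of Dclk1 and opposite to Tuba1a.

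Among the 22 LIS1 and dynein partners, 8 were higher and 1 lower at the newborn step, beside 17.5 and 15.6% of all genes, and 5 were higher and 2 lower by library sizes alone. In MGE interneuron-like cells 1 was higher and 10 lower against either projection neuron-like class, beside 22.1% of all genes lower in both comparisons. By library sizes alone these counts were 4 higher and 6 lower against newborn and 3 higher and 7 lower against later projection neuron-like cells. Dync1i1, a neuronal dynein intermediate chain, was at 420.9 ± 111.1 CPM in the projection neuron-like class against 28.1 ± 25.4 CPM in newborn cells and 20.4 ± 2.1 CPM in the MGE interneuron-like class. It is also among the 10 leading genes of cluster 0. Nde1, the mitotic partner of LIS1, fell from 49.2 ± 10.3 CPM in IPC-like to 4.12 ± 0.67 CPM in the newborn projection neuron-like class. LIS1's own gene did not pass the test at this step, as given above.

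The 25 genes of tubulin folding and modification included 13 that were higher and 2 that were lower at the newborn step, beside 17.5 and 15.6% of all genes. Agbl4, a carboxypeptidase that trims glutamate chains from tubulin, peaked in intermediate progenitors at 389.1 ± 71.2 CPM, against 71.2 ± 3.6 CPM in RGC-like, 98.6 ± 2.9 CPM in newborn and 29.5 ± 2.4 CPM in the later projection neuron-like class. Among the remaining listed genes, Cdk5r1, which encodes the CDK5 activator p35, rose from 10.2 ± 1.3 to 40.6 ± 2.6 CPM (log2 fold change 2.08, adjusted p = 3.06e-06, edgeR) at the step from RGC-like to IPC-like cells. Dclk2, another kinase with doublecortin domains, was at 463.4 ± 35.3 CPM in the MGE interneuron-like class against 126.5 ± 7.4 CPM in newborn and 132.5 ± 9.7 CPM in the later projection neuron-like class, the same direction as Dclk1 against newborn cells.

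Of 12 tubulins outside the 10 genes, 10 were tested between classes, with 1 higher and 3 lower in IPC-like than in RGC-like cells, beside 18.0% of all genes higher and 18.3% lower, and 2 higher and 4 lower in newborn projection neuron-like than in IPC-like cells, beside 17.5 and 15.6%. Tuba1b, Tuba1c and Tubb4b were lower at both steps out of radial glia, by log2 differences of -0.85, -1.14 and -0.90 in IPC-like cells and by a further -1.60, -2.46 and -1.03 in newborn cells. In RGC-like cells, 5 of the 7 that could be tested were higher in G2M than in G1 and 0 were lower, beside 7.84% of all genes higher and 6.12% lower. Without cluster 11, 4 of the 7 were higher and 0 lower, while the count over all genes fell from 1006 to 517 higher and from 786 to 128 lower. The genes called higher included Tubb4b (525.4 ± 39.1 against 56.2 ± 2.5 CPM) and Tuba1c (67.6 ± 2.2 against 3.1 ± 0.9 CPM). Since Tuba1b and Tuba1c share sequence with Tuba1a near the 3' end, the counts of these 3 genes are uncertain.

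Across 26 clusters of at least 50 cells, with both libraries summed, the gene whose log2(CPM + 1) profile was most like that of Tubb3 among 11519 genes was Mllt11 (Pearson's r = 0.99), followed by Ap3b2 (0.98) and Stmn3 (0.96). Dcx was closest to Nsg2 and Rab3c (both 0.97), Rnd2 to Prdm8 (0.90), Rcor2 (0.89) and Neurod1 (0.89), and Rnd3 to Bmpr1a and Gpc6 (both 0.82). Prdm8 and Neurod1 were among the markers that named the newborn neurons. Among the 10 genes themselves, Tubb3 and Dcx had r = 0.95, Tuba1a and Tubb3 0.90, Tubb2a and Tubb2b 0.59, and Rnd2 and Rnd3 0.29. Clusters share their libraries and stand along 1 lineage for the most part, so these values describe the profiles and carry no p-value.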

How the data were processed

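Dorsal telencephalon of 2 wild-type E14.5 mouse samples was profiled by the 10x Genomics 3' v3.1 protocol. The submitters' processing notes name Cell Ranger 7.0.0 and mm10. The annotation and the treatment of intronic reads are not given in the sources used here. The values deposited by the authors are raw UMI counts per gene and barcode, with no normalization, and the shallowest barcodes hold 502 and 500 UMIs.

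The cell filter was a depth of 1500 to 60000 UMIs with less than 10% of them mitochondrial, and doublets predicted by a simulation-based caller were removed (269 and 531 cells). Cells of both libraries were clustered together on 2000 variable genes and 30 principal components (Leiden, resolution 1, leidenalg 0.10.2), leaving out the 10 genes and all listed cytoskeletal genes. Clusters were named from marker genes. After the data were seen, a rule was added that withholds a non-neural name where at least 50% of a neural class's markers are on, which left cluster 20 unnamed. 3 of 27 clusters stayed unnamed. The members and lists were chosen with earlier results of these data known.

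UMI counts were summed per class and library and tested with edgeR 4.0.16 (glmQLFit and glmQLFTest, TMM, filterByExpr), with Benjamini-Hochberg adjustment over all genes tested and a threshold of 0.05. The 5 classes shared 1 fit of 10 sums, and the 3 phases of RGC-like cells shared another of 6 sums. The script was tested on simulated data. Named genes are the 10 members, the 3 other listed genes with the largest change per comparison and direction among those past the threshold, at 20 CPM or more and changed the same way in both samples, and the 5 genes most like each of Tubb3, Dcx, Rnd2 and Rnd3, of which the first few are printed. The text gives a selection of the listed genes.

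Sums of different classes with the same replicate number come from 1 library and so from 1 sample, which pairs them. The deviations of same-numbered sums correlated at 0.0069 to 0.28 over 10 pairs of classes and at 0.29 to 0.37 over 3 pairs of phases. Alternatives were DESeq2 1.42.0, library sizes in place of TMM, no filter on low counts, the replicate block, a stricter cell filter (3000 UMIs, 5% mitochondrial), doublets kept, resolution 2, cells thinned to 3000 UMIs and each replicate left out. Leaving out cluster 19 (138 shallow newborn cells) or cluster 11 was added after seeing the data. Depth was 64182006 and 93295807 UMIs.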

Additional observations from a re-analysis of the deposited data

How the results depend on the processing

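Of 530 tests of the 10 genes under alternatives other than leaving out a replicate, 477 kept their direction and side of the threshold, 15 lost it, 25 gained it and 13 turned direction. The turned values were all small, and in none of them was the main value past the threshold. They were 0.029 for Tubb2b (thinned) and -0.10 and -0.11 for Tubb5 (doublets kept, resolution 2) in IPC-like against RGC-like cells, 0.26 for Rnd3 in newborn against IPC-like cells and -0.033 for Pafah1b1 in later against newborn neurons (both doublets kept), 0.048 and 0.042 for Pafah1b1 in the 2 MGE comparisons (library sizes), 0.021 for Dclk1 and 0.035 for Pafah1b1 in G2M and 0.0014 for Tuba1a in S (no filter), and -0.35 for Tubb2a and 0.042 for Pafah1b1 in G2M and 0.16 for Tuba1a in S (without cluster 11). The causes were not tested.

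With doublets kept, 3 genes were higher and 2 lower in IPC-like against RGC-like cells. In MGE interneuron-like against projection neuron-like cells, 2 genes were higher with DESeq2, library sizes, the replicate block or thinning, and 0 without the filter. In S, 2 genes were higher with DESeq2 and 3 without the filter or with the block. Without cluster 11, 1 gene was higher in G2M, and 0 genes were lower in G2M or in S. Apart from the calls named with the results, the replicate block changed no call of the 10 genes. Leaving out cluster 19 changed none.

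Over all genes, thinning, which tests fewer genes, gave 1746 higher in IPC-like against RGC-like cells, 1836 higher and 1648 lower at the newborn step, and 2168 lower in MGE interneuron-like against projection neuron-like cells, where library sizes gave 2955 higher. The stricter filter gave 1494 higher in MGE interneuron-like against newborn cells. In G2M, 1683 were higher without the filter, 2098 higher and 1988 lower with the block, 506 lower with DESeq2, and 517 higher and 128 lower without cluster 11. In S, 1723 were higher without the filter, 2161 higher and 1791 lower with the block, and 475 higher and 48 lower without cluster 11.

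The Tubb3 share of beta-tubulin UMIs in RGC-like cells was 1.501% with the stricter filter, 4.99% with doublets kept and 1.62% at resolution 2. At 1500 UMIs a cell, Dcx was detected in 4.49% of RGC-like and 74.9% of MGE interneuron-like cells. With 1 replicate left out no residual degrees of freedom remain, so these are values without a test. A class of 222 shallow cells, 2 samples and free RNA limit what the low levels can show.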
